A study of Mus musculus with 30 samples.

Results

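CpG clusters that lie far from any annotated gene were examined in mouse sperm. A cluster, called a run here, was taken on chromosomes 1 to 19 as 10 or more CpGs, each at most 100 bp from the next. Both strands of a CpG were summed, and a CpG counted where at least 20 of the 30 libraries covered it with 10 reads or more. Of 19893 such runs, 672 (3.38%) lay over 5 kb from the body of every gene in the RefSeq annotation of GRCm38, and they held 10735 of the 567410 CpGs in runs. Another 1423 runs lay within 5 kb of a gene body without touching it, and 17798 overlapped one. The far runs had 10 to 96 CpGs (median 12), were 50 to 791 bp long and lay 5010 to 394198 bp from the nearest gene (median 14646.5 bp).

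The libraries came from sperm of both cauda epididymides of male C57BL/6J mice, 1 library per mouse. The 15 cadmium mice had 0.9 ppm cadmium, as the chloride, in reverse-osmosis drinking water, with a mean dose of 0.68 mg per kg of body weight, and the 15 vehicle mice had the water alone. All mice were bought at 7 weeks of age, ate the same purified 10% fat diet, and are labelled as sampled 9 weeks after treatment. Methylation was read by reduced representation bisulfite sequencing (RRBS), an assay that enriches CpG-rich fragments with a restriction enzyme and reads unmethylated cytosines as thymine.

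DNA methylation at CpGs is laid down in male germ cells before birth and is kept through most of the sperm genome. CpG islands, where CpGs are dense, are the main exception and usually stay free of it, mostly at promoters. Islands far from annotated genes are often called orphan islands, and some of them act as enhancers or as promoters of transcripts that an annotation lacks. Dense CpGs that do carry methylation in sperm include imprinted control regions marked in the father's germline and many young repeats.

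Coverage summed over cytosines ran from 53591172 to 94090975 per library, and the far runs were read 49.5 to 69.2 times per CpG in cadmium libraries and 50.8 to 85.4 times in vehicle libraries. An added control sequence that is methylated read 97.9% to 98.7% and an unmethylated one 0.0740% to 0.666%. The H19 control region, which sperm carries methylated, stood at 75.8% to 97.0% (median 90.2%) in cadmium mice and at 56.7% to 100% (median 88.0%) in vehicle mice over 4 CpGs. Of 24 genes at maternal germline regions, which sperm lacks methylation at and body cells carry on the mother's copy, 15 had a gene end with 3 or more CpGs that was measured in every mouse and averaged under 20%. That last condition uses the level itself and left out Plagl1 (20.96%) and Mest (25.4%). Their mean level was 6.51% to 23.6% (median 16.3%) in cadmium mice and 3.97% to 29.5% (median 11.5%) in vehicle mice. The lowest of the 15 over all mice was Grb10, at 0.892%, and 7 of the 15 were at 0 in at least 1 library. Peg3 shared its CpGs with Usp29, and Peg10 shared its CpGs with Sgce.

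The far runs fell into unmethylated, partly methylated and methylated runs, cut at 20% and 80% of the mean over the mice that measured each run. There were 344 unmethylated runs (51.2%), 166 partly methylated ones (24.7%) and 162 methylated ones (24.1%). Most lay near an end of the scale, under 5% or over 90%. There were 159 runs under 1%, 114 between 1% and 5%, 60 between 90% and 95% and 45 above that. Another 71 lay between 5% and 20%, 91 between 20% and 40% and 29 between 40% and 60%. A further 46 lay between 60% and 80%, and 57 between 80% and 90%. Runs also sat at the cuts, which do not fall in gaps of the scale. Between 19% and 21% there were 12 runs, the nearest at 19.5% and 20.1%, and between 79% and 81% there were 8, the nearest at 79.8% and 80.3%. In a bulk library a run at 40% may be methylated in some DNA molecules and free in others or partly methylated in all, and these cannot be told apart.

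Far runs were methylated much more often than other runs, in every mouse. Over the 576 far runs and 17476 other runs measured in all 30 libraries, the mean level was 33.0% ± 2.06 in far runs against 5.93% ± 0.544 in the others (SD over 30 mice). Runs over 80% made up 22.7% ± 1.22 of far runs and 3.32% ± 0.196 of other runs, and runs of 20% to 80% made up 21.3% ± 4.42 and 4.03% ± 1.26. Each difference had the same direction in 30 of 30 mice, and the paired permutation test over mice gave p = 1e-05, the smallest that 100000 resamples can give (adjusted p = 1e-05). Here and in the later paired comparisons of far with other runs, p measures how steady a difference was over mice. It does not cover the variation between runs.

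The contrast also held against runs that are near genes but outside them. The 1243 runs within 5 kb averaged 4.65% ± 0.668, and 1.74% ± 0.174 of them were over 80%. Of the measured far runs 386 had 10 to 15 CpGs, as did 4936 of the other runs, and these were compared with each other as a check chosen after seeing the data. The mean level was 44.4% ± 2.66 in far runs of that size, against 15.6% ± 1.02 in the others and 7.99% ± 0.995 in 619 runs within 5 kb (each in 30 of 30 mice, p = 1e-05).

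**Figure D1:**
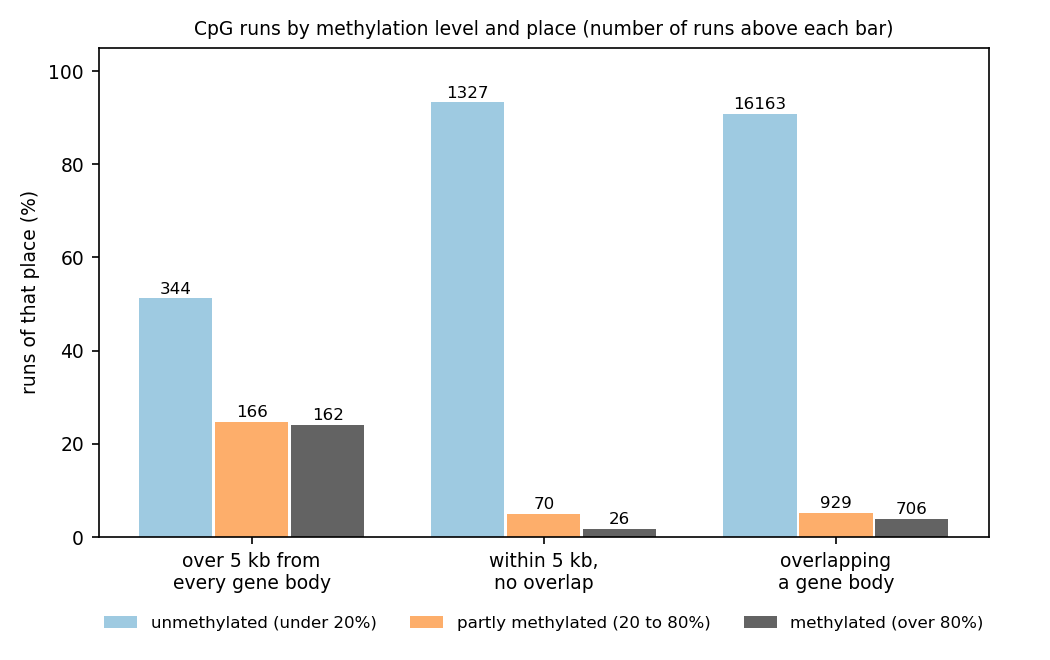
Share of CpG runs (%) that were unmethylated, partly methylated or methylated, for runs over 5 kb from every gene body, within 5 kb of one and overlapping one; the number above a bar is the count of runs. Far runs hold 162 methylated runs of 672, against 26 of 1423 within 5 kb and 706 of 17798 over gene bodies.

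Methylated runs took a larger share with distance from genes. Of the 418 runs 5 to 20 kb from a gene, 262 (62.7%) were unmethylated and 59 (14.1%) methylated. At 20 to 50 kb the shares were 40.1% and 29.3% of 157 runs, and at 50 to 100 kb they were 31.7% and 41.7% of 60 runs. None of the 37 runs beyond 100 kb was unmethylated, and 32 of them (86.5%) were methylated. Just beyond the 5 kb limit, the 60 runs at 5 to 6 kb averaged 23.0%, with 39 unmethylated, 15 partly methylated and 6 methylated. Just inside it, the 63 runs at 4 to 5 kb averaged 16.7%, with 49 unmethylated, 6 partly methylated and 8 methylated. These shares describe runs, which are not replicates, and carry no test.

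**Figure D2:**
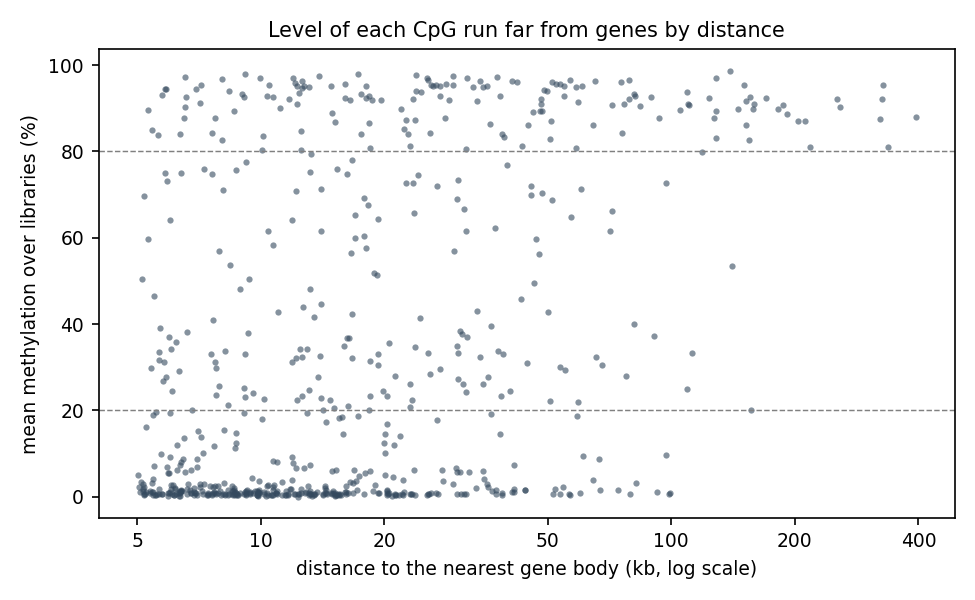
Mean methylation (%) of each of the 672 far runs against its distance to the nearest gene body (kb, log scale), with dashed lines at 20% and 80%. The unmethylated band along the bottom ends before 100 kb, while runs over 80% reach to 394198 bp.

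The share of unmethylated runs was higher among runs with more CpGs. Of the 185 runs with exactly 10 CpGs, 52 (28.1%) were unmethylated, and of the 294 with 11 to 15 CpGs 126 were (42.9%). The share was 77.6% of 85 runs with 16 to 20 CpGs and 85.1% of 47 with 21 to 30. Of the 61 runs with 31 to 96 CpGs, 60 were unmethylated. The median density was 7.76 CpGs per 100 bp in unmethylated runs, 5.22 in partly methylated ones and 5.59 in methylated ones.

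The largest unmethylated runs were close to free of methylation in every mouse. The run with the most CpGs (96, chromosome 15, 68362490 to 68363068, 21201 bp from Mir30d, a microRNA gene) stood at 0.117% to 1.13% (median 0.235%) in cadmium mice and 0.0220% to 0.903% (median 0.307%) in vehicle mice. A pair of runs with 89 and 87 CpGs lay side by side between D130051D11Rik and Lncppara, both lncRNA genes, at 85670567 to 85671205 and 85671328 to 85672058 on chromosome 15. They averaged 0.689% and 0.595%, and the highest value in any mouse was 2.13% and 4.403%. A run of 73 CpGs lay 9387 bp from Mir155hg, the host gene of an immune microRNA (chromosome 16, 84702917 to 84703636), and averaged 0.646%. A run of 63 CpGs lay 9201 bp from Gm30149 (chromosome 7, 73617941 to 73618728) and averaged 0.381%. In each of these runs the groups overlapped.

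Methylated runs were smaller, with 22 CpGs at most. That largest one (chromosome 2, 116535044 to 116535834, 6371 bp from the pseudogene Gm13991) averaged 84.1% ± 3.51 over the mice, but its CpGs ranged from 38.5% to 98.4%. The next (21 CpGs, chromosome 3, 62158825 to 62159135) averaged 92.6% ± 4.65. A run of 19 CpGs lay 12239 bp from Sult2a4, a sulfotransferase gene (chromosome 7, 13897102 to 13897438), and averaged 95.1% ± 3.15. Runs of 18 CpGs (chromosome 2, 98389527 to 98389811) and 17 CpGs (chromosome 3, 23687723 to 23687872, 110231 bp from Naaladl2) averaged 87.0% ± 5.62 and 90.7% ± 3.26. The SDs are over 30 mice.

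The 5 runs farthest from any gene were all methylated. The farthest lay 394198 bp from the pseudogene Gm12004 on chromosome 11 (13392777 to 13393017, 11 CpGs). It stood at 79.6% to 96.9% (median 88.0%) in cadmium mice and 80.5% to 93.3% (median 88.4%) in vehicle mice. A pair of runs on chromosome 14, at 92031873 and 92040484, lay 336561 and 327904 bp from the snoRNA gene Gm24127 and averaged 81.01% ± 7.69 and 95.3% ± 3.14. The other two, at 99228350 on chromosome 2 and 17572754 on chromosome 15, averaged 92.1% ± 5.47 and 87.6% ± 5.92.

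The kind of nearest gene differed between classes. Among the 282 runs nearest to a protein-coding gene, 165 (58.5%) were unmethylated and 50 (17.7%) methylated. Among the 218 nearest to a lncRNA gene, 117 (53.7%) were unmethylated and 39 (17.9%) methylated. Among the 122 nearest to a pseudogene, 37 (30.3%) were unmethylated and 60 (49.2%) methylated. Of the 14 nearest to a microRNA gene, 11 were unmethylated, at 0.256% to 7.25%, among them runs by Mir137, Mir181c, Mir23a, Mirlet7a-1 and Mir30d. These and the following counts are descriptions of neighbours, with no test, and 578 distinct genes were nearest to the 672 runs.

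A list of developmental transcription factor genes, of families that pattern the embryo, was drawn up by the start of the gene symbol. Of 30 runs whose nearest gene was on that list, 25 were unmethylated, 3 partly methylated and 2 methylated. They lay 5081 to 99368 bp from that gene, and all 21 of those within 20 kb were unmethylated. Among all 418 far runs 5 to 20 kb from a gene, 262 (62.7%) were unmethylated. The list does not hold every such family. Lbx1, a homeobox gene left out of it, had a partly methylated run at 11944 bp, with a mean of 31.3%. Another 2 runs, both unmethylated, were nearest to Lhx1os and Tbx3os2, lncRNA genes named for such neighbours. The run 6184 bp from Lhx2, a forebrain and limb regulator, averaged 2.12% ± 2.76, the one 5422 bp from Neurog2, which drives neuron formation, 1.16% ± 1.01, and the one 7683 bp from Meis1, a homeobox partner, 1.03% ± 1.19. Irx5, a homeobox gene of heart and eye, had 5 far runs on one side. They averaged 4.18% at 5448 bp, 64.8% at 57074 bp, 84.3% at 75652 bp, 0.531% at 98856 bp and 0.851% at 99368 bp, so the level did not follow distance there. The run 50967 bp from Pax5, a B cell regulator, was methylated, at 87.0% ± 8.19. Of 13 runs nearest to an olfactory or vomeronasal receptor gene, 1 was unmethylated, 5 partly methylated and 7 methylated. Among all 672 far runs the shares were 51.2%, 24.7% and 24.1% in that order.

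The neighbours of the paternal germline regions gave 1 run. It lay between the pseudogene Mif-ps7 and Dlk1, an imprinted growth regulator, 14405 bp from Dlk1 (chromosome 12, 109437821 to 109438080, 16 CpGs). The run was picked by its neighbouring gene, so it need not be part of a germline region. It was unmethylated, at 0% to 5.39% (median 0.796%) in cadmium mice and 0% to 3.46% (median 1.36%) in vehicle mice. The groups overlapped throughout.

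Runs close together were usually of the same class. Of 59 pairs of neighbouring far runs within 5 kb of each other, 55 were of the same class. Of these, 46 were pairs of unmethylated runs, with a median gap of 0.381 points. The 5 partly methylated pairs differed by 0.735 to 23.0 points and the 4 methylated pairs by 2.78 to 8.57 points. One pair held both extremes and is named for that, after its values were seen. Between Gm13056 and Epha2, a receptor tyrosine kinase gene on chromosome 4, a run of 11 CpGs at 141289722 to 141289958 stood at 95.7% to 100% (median 99.0%) in cadmium mice and 88.8% to 100% (median 96.8%) in vehicle mice. A run of 13 CpGs that began 1575 bp further on, at 141291533, stood at 0.593% to 9.73% (median 4.14%) in cadmium mice and 0% to 10.0% (median 4.65%) in vehicle mice. The means differed by 92.7 points, and the ranges of the 2 runs did not overlap.

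Most unmethylated runs were low at every CpG, while the other classes were more mixed. In 304 of the 344 unmethylated runs every CpG averaged under 20%, and in 101 of the 162 methylated runs every CpG averaged over 80%, while 5 of them mixed CpGs under 20% with CpGs over 80%. Of the 166 partly methylated runs, 69 had all of their CpGs between 20% and 80%, and 4 held both kinds. CpGs were then split by position into the outer 25% on each side and the rest. The outer CpGs were 0.470 points higher in unmethylated runs (3.33% ± 0.993 and 2.86% ± 0.770, higher in 24 of 30 mice, permutation p = 2e-05, adjusted p = 4.5e-05). In methylated runs they were 0.667 points higher (91.4% ± 0.799 and 90.8% ± 0.884, 23 of 30 mice, permutation p = 3e-05, adjusted p = 4.5e-05). In partly methylated runs they were 0.606 points higher (45.2% ± 5.66 and 44.6% ± 6.35, 18 of 30 mice, permutation p = 0.0494, adjusted p = 0.0494). By runs, the outer CpGs were higher in 191 of 292 unmethylated, 74 of 123 methylated and 77 of 138 partly methylated runs. The permutation p values measure how steady the difference was over mice for these runs, not over runs.

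Mice differed from each other most in the partly methylated runs. The median SD between mice was 16.6 points there, against 1.47 in unmethylated and 4.61 in methylated runs, and 124 of the 166 spanned over 50 points between the lowest and highest mouse. So did 10 of the 344 runs classed as unmethylated by their mean, with an SD of up to 28.5 points, and 3 of the 162 methylated runs. The run with the largest SD lay 19265 bp from the snoRNA gene Gm24376 on chromosome 4 (44393029 to 44393204, 14 CpGs). It stood at 1.25% to 84.6% (median 44.9%) in 12 cadmium mice and 0% to 91.2% (median 17.2%) in 15 vehicle mice. A run of 10 CpGs 140311 bp from Gm30911 on chromosome 4 (152999604 to 152999721) went over the whole scale, at 0% to 100% (median 56.0%) in 14 cadmium mice and 4.76% to 92.6% (median 48.3%) in 14 vehicle mice. A run 8189 bp from Mir6349 (chromosome 1, 39178528) and one 29561 bp from 4930413E15Rik (chromosome 5, 118990822) had SDs of 25.3 and 24.6 points. In all of these the groups overlapped.

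Some partly methylated runs were steady across mice. The most deeply read run, with 2206 reads per CpG against a median of 52.6, lay 109324 bp from the pseudogene Gm8797 on chromosome 3 (5860619 to 5860718, 15 CpGs). It stood at 15.8% to 33.1% (median 24.1%) in cadmium mice and 16.8% to 32.3% (median 26.8%) in vehicle mice. A pair by Gm32719 on chromosome 12, at 20233268 and 20234059, had 463 and 321 reads per CpG and averaged 75.8% ± 5.03 and 75.001% ± 4.54. In all, 25 far runs had over 100 reads per CpG, of which 11 were methylated, 8 partly methylated and 6 unmethylated. Whether their reads come from several copies of a repeat was not tested, so their levels are uncertain as those of 1 place.

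The spread of far runs around their own means was also compared with that of other runs of the same class, a measure chosen after seeing the data. In unmethylated runs a mouse deviated from the mean of a run by 1.99 ± 0.440 points in far runs and 0.810 ± 0.111 points in other runs, more in 30 of 30 mice (paired permutation p = 1e-05, adjusted p = 3e-05). The far unmethylated runs also had a higher level, 3.15% ± 0.832 against 1.14% ± 0.235. In partly methylated runs it was 12.9 ± 4.27 and 13.6 ± 5.33 points, higher in 9 of 30 mice (permutation p = 0.00428, adjusted p = 0.00642). In methylated runs it was 3.89 ± 0.634 and 3.67 ± 0.806 points (18 of 30 mice, permutation p = 0.125, adjusted p = 0.125).

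The labels pose the question whether cadmium changes methylation in sperm, and no difference between the groups passed in the far runs. Methylated and unmethylated reads summed over each run were compared with a logistic model with a dispersion term, adjusted over all 19844 runs measured in 10 or more mice of each group. Of the 669 far runs tested, 0 passed an adjusted p of 0.05, as did 0 of all runs (0.0%). At an unadjusted p under 0.05 there were 24 far runs (3.59%), against 5.79% of all runs. Of these, 9 were higher in cadmium mice (1.35%, against 2.8% of all runs) and 15 lower (2.24%, against 2.99%). limma on the percent values also called 0, with 26 of 576 far runs at an unadjusted p under 0.05 (4.51%, against 4.04% of 18051 runs). Of 10217 single CpGs in far runs 0 passed, against 6 of 1110847 CpGs in all (0.00054%), and 931 (9.11%) had an unadjusted p under 0.05, against 10.1%. Both shares are above the 0.05 of the threshold, so the unadjusted p of single CpGs may be too small.

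The mean levels of each class lay within a fraction of the spread between mice. Unmethylated runs averaged 3.16% ± 0.671 in cadmium mice and 3.15% ± 0.992 in vehicle mice (SD, n = 15 each), a difference of 0.0118 points (95% interval -0.625 to 0.649). Partly methylated runs averaged 44.9% ± 4.92 in cadmium mice and 44.0% ± 7.16 in vehicle mice, a difference of 0.930 points (-3.69 to 5.55). Methylated runs averaged 91.1% ± 0.706 in cadmium mice and 91.2% ± 0.782 in vehicle mice, a difference of -0.101 points (-0.659 to 0.457). Over all 576 runs the difference was 0.2196 points (-1.36 to 1.80). Two-sided permutation tests gave p = 0.971, 0.683, 0.715 and 0.776 in that order, all with an adjusted p of 0.971. The interval for partly methylated runs spans differences of several points.

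**Figure D3:**
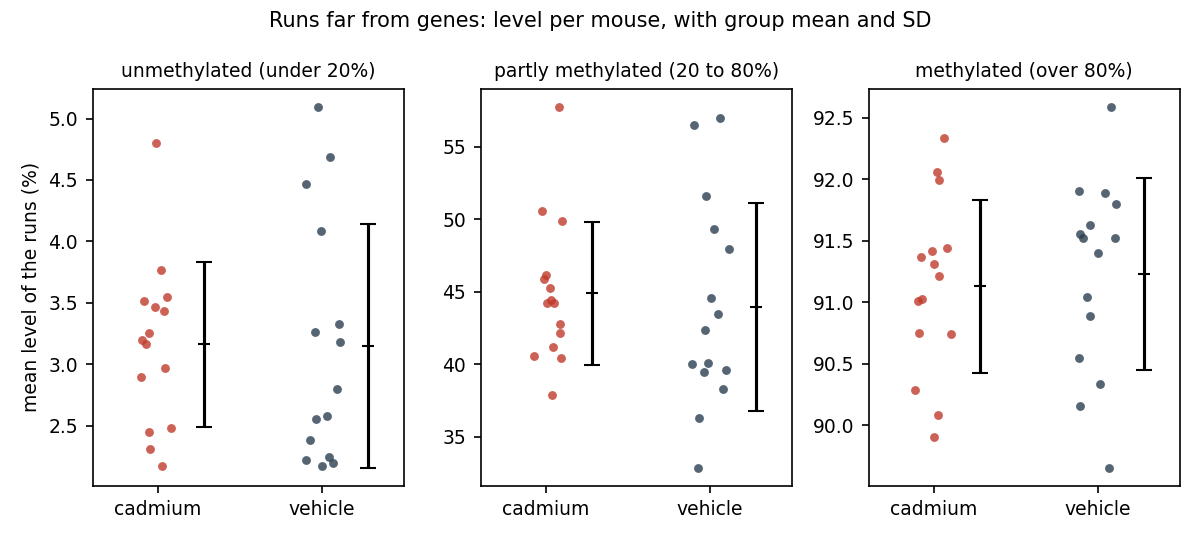
Mean level (%) of the unmethylated, partly methylated and methylated far runs in each mouse, cadmium left and vehicle right, with the group mean and SD beside the points. The groups overlap in each class, and the partly methylated runs spread from 37.9% to 57.7% in cadmium mice and from 32.9% to 57.0% in vehicle mice.

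The far run with the smallest p lay 7792 bp from the pseudogene Gm46141 and 11712 bp from Myl3, a heart myosin light chain gene (chromosome 9, 110781514 to 110782001, 38 CpGs). It stood at 0% to 0.985% (median 0.245%) in cadmium mice and 0% to 3.49% (median 0.574%) in vehicle mice, lower in cadmium mice by 0.642 points with overlapping groups (p = 7.6e-04 in the logistic model, adjusted p = 0.328). The next of those lower in cadmium mice lay 17218 bp from Skap2, an adaptor gene of immune cells (chromosome 6, 51841691 to 51841947), at 89.6% to 100% (median 97.6%) in cadmium mice and 96.9% to 100% (median 99.3%) in vehicle mice (adjusted p = 0.459). The other 3 lower ones, by Gm10320, Gm8096 and Mir155hg, differed by -0.248, -2.55 and -0.129 points (adjusted p = 0.553, 0.705 and 0.727 in the logistic model).

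Among runs higher in cadmium mice, the smallest p was by Nxph3, a neurexophilin gene (chromosome 11, 95520901 to 95520973, 12 CpGs). It stood at 0% to 2.31% (median 0%) in 14 cadmium mice, while each of the 15 vehicle mice read 0% (adjusted p = 0.579 in the logistic model). A group that reads 0% throughout adds nothing to the dispersion term, so the p of this run may be too small. The run 8558 bp from Fos, an immediate early transcription factor gene (chromosome 12, 85485832 to 85486208, 33 CpGs), stood at 0% to 1.52% (median 0.423%) in cadmium mice and 0% to 1.93% (median 0.101%) in vehicle mice. The run 11944 bp from Lbx1, a homeobox gene of muscle and spinal cord (chromosome 19, 45248785 to 45249078, 15 CpGs), was partly methylated, at 3.33% to 67.5% (median 37.4%) in cadmium mice and 0% to 73.8% (median 16.1%) in vehicle mice. Its difference was 12.5 points (adjusted p = 0.740), and both groups spanned almost the same range. The other two, by Gm34785 and D730005E14Rik, differed by 3.32 and 0.359 points (adjusted p = 0.705 and 0.722).

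Directions were even in the unmethylated and methylated runs, where 170 of 342 and 78 of 162 tested far runs were higher in cadmium mice. In partly methylated far runs 103 of 165 (62.4%) were higher, and 647 of 996 (65.0%) of the other partly methylated runs were. Many runs of a library move together, as the following values show, so these counts carry no test.

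The level of the far runs moved with the share of coverage that fell on mitochondrial DNA, a sequence that sperm holds few copies of. The share was 0.0127% to 0.0923% (median 0.0673%) in cadmium mice and 0.0128% to 0.119% (median 0.0449%) in vehicle mice. Pearson's r over the 30 mice was 0.878 for unmethylated runs (rho = 0.889) and 0.827 for partly methylated runs (rho = 0.841), with a permutation p of 1e-05 for each and an adjusted p of 3e-05 over 12 relations. For methylated runs r was 0.608 (permutation p = 4e-04, adjusted p = 9.6e-04) and rho 0.579 (p = 9.3e-04, adjusted p = 0.00223). Without vehicle mice 12 and 13, which lay farthest from the median share, r was 0.857, 0.801 and 0.513 for unmethylated, partly methylated and methylated runs. Within cadmium mice it was 0.852, 0.783 and 0.522, and within vehicle mice 0.892, 0.853 and 0.673.

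The maternal germline level gave similar values, with r = 0.842 for unmethylated, 0.828 for partly methylated and 0.508 for methylated runs (rho = 0.825, 0.834 and 0.424; permutation p = 1e-05, 1e-05 and 0.00432 for r and 1e-05, 1e-05 and 0.0204 for rho). The adjusted p were 3e-05, 3e-05 and 0.00864 for r and 3e-05, 3e-05 and 0.0407 for rho. Without vehicle mice 4 and 13 r was 0.764, 0.744 and 0.373, within cadmium mice 0.684, 0.591 and 0.262, and within vehicle mice 0.930, 0.938 and 0.698. For the methylated runs the relation was weaker without vehicle mice 4 and 13 (permutation p = 0.0516 for r) and within cadmium mice (permutation p = 0.346 for r). Total coverage and the unmethylated control passed in none of their 6 relations (lowest adjusted p = 0.388 for r and 0.201 for rho). What these library measures contribute to the levels was not tested.

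**Figure D4:**
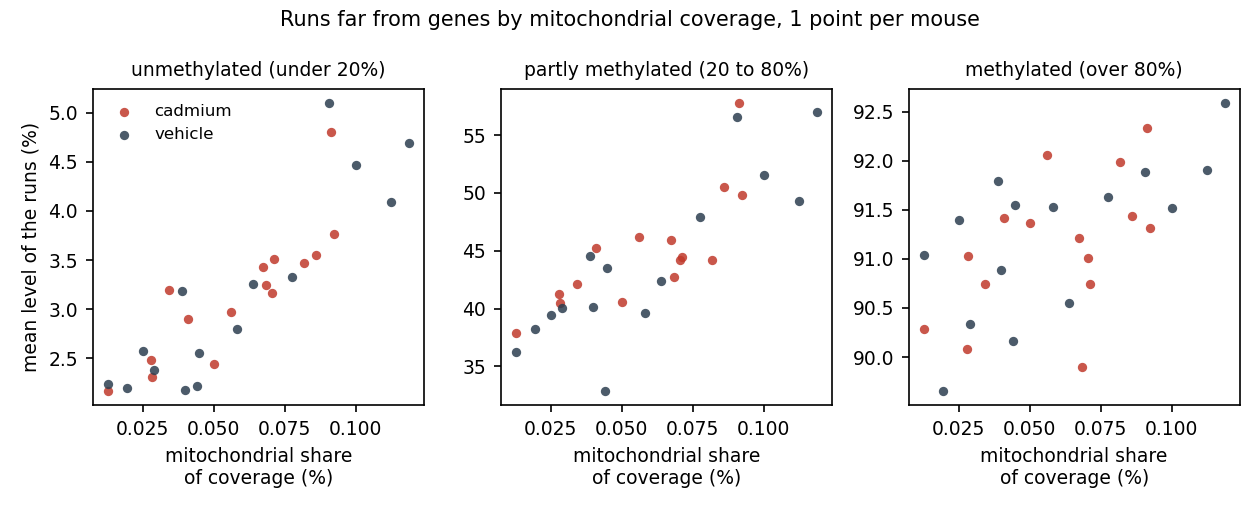
Mean level (%) of unmethylated, partly methylated and methylated far runs against the mitochondrial share of coverage (%), 1 point per mouse, cadmium and vehicle in separate colours. Levels are higher at higher shares in each panel, most closely for unmethylated runs (r = 0.878) and least for methylated runs (r = 0.608).

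Many of the partly methylated runs shifted together from mouse to mouse, while some shifted the opposite way. Their mean was lowest in vehicle mouse 15 (32.9%) and vehicle mouse 3 (36.3%), and highest in cadmium mouse 13 (57.7%), vehicle mouse 13 (57.0%) and vehicle mouse 4 (56.5%). The first principal component of the 146 partly methylated runs measured in every library held 53.4% of their variance and the next 4.89%. It had a positive weight for 111 of the 146 runs.

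Single far runs rose or fell with the mitochondrial share in limma, with treatment as a further term and p adjusted over all 18051 runs, a test chosen after seeing the data. Of 576 far runs, 129 rose (22.4%) and 41 fell (7.12%), against 7.32% and 1.74% of all runs. Among partly methylated far runs 78 of 146 rose and 28 fell, among unmethylated ones 32 of 303 rose and 4 fell, and among methylated ones 19 of 127 rose and 9 fell. The rising share was thus 53.4% of partly methylated far runs, against 63.9% of the other partly methylated runs (527 of 825, with 124 falling). It was 10.6% of unmethylated far runs, against 4.08% of the other unmethylated runs (657 of 16096, with 29 falling). Those 32 far runs had a median level of 9.65%, against 0.888% in the 267 unmethylated far runs that neither rose nor fell. Partly methylated runs take a larger share of far runs than of other runs, which enters the counts over all classes. Without vehicle mice 12 and 13 the counts over all far runs were 106 and 36, but only 10 methylated runs rose and 1 unmethylated run fell.

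The 78 rising partly methylated runs had a median level of 32.2%, and 68 of them averaged under 50%. The 28 falling ones had a median of 65.8%, and 22 averaged over 50%. Averaged over the 78 rising runs, mice ranged from 17.9% (mouse 5) to 60.8% (mouse 13) in the cadmium group and from 15.6% (mouse 3) to 64.4% (mouse 13) in the vehicle group. Over the 28 falling runs they ranged from 40.4% (mouse 9) to 79.8% (mouse 5) in the cadmium group and from 33.4% (mouse 13) to 81.4% (mouse 3) in the vehicle group. In vehicle mouse 3 the 2 sets stood far apart, and in vehicle mouse 13 the rising set stood above the falling one. The sets were chosen by this slope, so these ranges are descriptions.

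The steepest rise was in a run of 14 CpGs on chromosome 10 (95370938 to 95371148), 7722 bp from the lncRNA gene 2310039L15Rik. Socs2, a suppressor of cytokine signalling, lay 12755 bp away on the other side. The run rose by 35.2 ± 4.02 points (SE) per 0.05 percentage points of mitochondrial share (limma adjusted p = 4.61e-07). It stood at 0% to 73.0% (median 36.0%) in cadmium mice and 1.61% to 85.03% (median 23.8%) in vehicle mice. A run 12591 bp from Terf2, a telomere protein gene (chromosome 8, 107109139), rose by 30.2 ± 3.08 points and stood at 7.78% to 76.8% in cadmium mice and 2.84% to 70.4% in vehicle mice. A run 13803 bp from Stac2, a gene of calcium channel regulation (chromosome 11, 98067265), rose by 31.9 ± 4.28 points.

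The steepest fall was in a run 19298 bp from Lncppara (chromosome 15, 85684289 to 85684475, 11 CpGs), with a slope of -33.6 ± 3.09 points (SE, limma adjusted p = 7.3e-08). It stood at 35.7% to 98.2% (median 64.9%) in cadmium mice and 24.7% to 95.9% (median 68.0%) in vehicle mice. The pair of near-unmethylated runs with 89 and 87 CpGs described above lies on the same side of Lncppara. In this run too the groups overlapped.

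**Figure D5:**
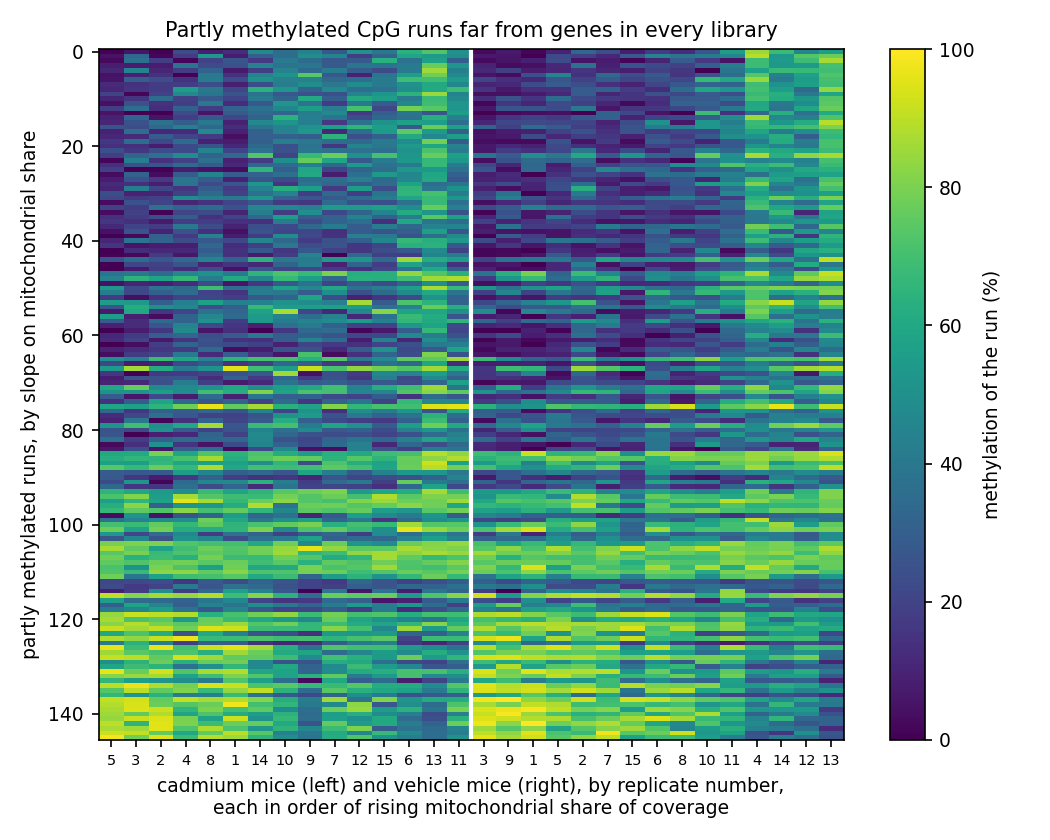
Methylation (%) of the 146 partly methylated far runs measured in every library, 1 row per run from the steepest rise at the top to the steepest fall at the bottom. Columns are cadmium mice at the left and vehicle mice at the right, each in order of rising mitochondrial share. The upper rows brighten and the lowest rows darken towards the right of both blocks.

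Methylated far runs differed here from other methylated runs. Their mean was 91.2% ± 0.734 against 93.2% ± 1.62 over 30 mice. With the mitochondrial share the far ones had r = 0.608, while the others had r = -0.894 (rho = -0.899, permutation p = 1e-05 for each). The gap between them per mouse followed the share itself, with r = 0.926 (permutation p = 1e-05) and rho = 0.938 (p = 1e-05), adjusted p = 1e-05 over 3 classes. Its r was 0.907 without vehicle mice 12 and 13, 0.890 within cadmium mice and 0.950 within vehicle mice. The gap did not keep its sign in every mouse. In vehicle mouse 3 far methylated runs averaged 91.0%, against 95.4% in methylated runs that overlap a gene body. In vehicle mouse 13 the order was reversed, at 92.6% against 89.9%. By single runs, 19 of 127 far methylated runs rose and 9 fell, against 8 and 120 of 554 other methylated runs. In partly methylated runs the gap, far minus other, fell with the share (r = -0.843, rho = -0.838, permutation p = 1e-05 for each, adjusted p = 1e-05). In unmethylated runs the gap widened with the share (r = 0.855, rho = 0.856, permutation p = 1e-05 for each, adjusted p = 1e-05). This comparison was chosen after seeing the data.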

How the data were processed

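Per the file layout, the authors deposited, for each cytosine of a CpG and strand, the fraction of methylated reads and the count of covering reads. Per the submitters' processing notes, methylKit 1.12.0, Bismark 0.22.3, Trim Galore 0.5.0 and bcl2fastq were used with the builds mm10 and GRCm38, and their roles are not given in the sources used here. Each product of fraction and count was rounded to give the methylated reads; it differed from a whole number by over 0.1 at no more than 1 cytosine in a library. No minimum count had been applied. PCR copies are not separate molecules, so counts overstate the depth.

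Runs were built as described on 1183283 CpGs. A run was measured in a library with 5 or more CpGs of 10 or more reads, and its level is the mean over them. RefSeq genes of every kind, predicted genes and pseudogenes included, counted as gene bodies. Group tests used a logistic model (F test, Pearson dispersion held at 1 or more) and limma 3.58.1 (R 4.3.3) on percents, adjusted by the Benjamini-Hochberg method. Class means used runs measured in all 30 libraries, and 1 run with no spread was left out of limma. Permutation tests were two-sided with 100000 resamples (Python 3.11.15, numpy 2.4.6, scipy 1.17.1). Runs named for treatment were those with the smallest p, 5 in each direction. Runs were also named for the most CpGs (overall and by class), the largest distance, the largest SD among partly methylated runs, the deepest coverage and paternal germline neighbours. Neighbours listed for transcription factors, microRNAs and slopes were picked as examples. The runs, classes and lists were chosen with earlier results of these data known. No 2 libraries looked alike within counting noise: the mean chi-square per run was at least 14.1 among 435 pairs. Alternatives changed the minimum reads, the libraries a CpG needs, the coverage limit, the joining distance, the run size, the distance to genes, the class limits and the model.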

Additional observations from a re-analysis of the deposited data

How the results depend on the processing

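No far run passed under 11 of the 12 alternatives to the run test (other read minimums, joining distances, run sizes, distances, coverage limits, CpGs in every library and limma in 3 forms), and 416 passed without a dispersion term, which ignores the variation between mice. All 10 runs named for treatment, chosen for the smallest p in these data, kept their direction under each alternative that measured them. With the coverage limit, the larger distance to genes and no dispersion term their differences were unchanged. The same held in limma with or without the replicate block. Those alternatives left the levels of these runs as they were, so they cannot test the direction. The contrast of far with other runs kept its direction under 7 alternatives, from 22.5 to 33.1 points in mean level and from 16.6 to 24.8 points in the share over 80%.

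No group difference passed, and these changed sign (in points). With 20 reads they were -0.0541 for unmethylated and 0.0639 for methylated runs. With CpGs of all 30 libraries the methylated runs gave 0.584. With 20 or more CpGs they were -0.0954 for all, -0.0477 for unmethylated and -0.493 for partly methylated runs, and the 2 methylated runs of that size gave -1.30 without a change of sign. With class limits of 10% and 90% they were -0.0603 and 0.0575 for unmethylated and methylated runs. The mitochondrial share as a covariate, chosen after seeing the data, gave 0.900 for partly methylated runs (permutation p = 0.481).

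Among relations, r of unmethylated runs with total coverage was -0.0551 without vehicle mice 4 and 10, and r with the unmethylated control within vehicle mice was -0.0782, -4.86e-04 and -0.0679 for the 3 classes, none passing. Methylated runs had r = 0.542 with total coverage within cadmium mice (permutation p = 0.0397), and with the maternal germline level 0.373 without vehicle mice 4 and 13 and 0.262 within cadmium mice. The cause of these changes was not tested. Without vehicle mice 12 and 13, 10 methylated runs rose with the mitochondrial share in place of 19, and 1 unmethylated run fell in place of 4.

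Replicate numbers shared by the groups were treated as names without pairing, since the labels do not say that they pair mice. The correlation averaged 0.147 in same-numbered pairs and -0.00899 in differently numbered ones. It was over 0.1 in 8 of 15 same-numbered pairs (-0.435 to 0.806), and 2 correlated best with their own number. These values do not decide whether the numbers pair mice. The replicate block left 0 far runs in limma and gave a permutation p of 0.702 for all runs and 0.580 for partly methylated runs.

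Depth limits runs of few reads: 96 of the 672 far runs were not measured in all 30 libraries.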
